A study of Mus musculus with 93 samples.

Results

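Chemokines and their receptors were followed in the livers of 7 inbred mouse strains fed a control or a Western diet. The genes were taken by symbol: every chemokine ligand of the Ccl, Cxcl, Xcl and Cx3cl families, every Ccr, Cxcr, Xcr or Cx3cr receptor and the atypical receptors Ackr1 to Ackr4 with at least 10 counts in at least 5 mice. Of 68 matching entries in the count table, 50 genes met this limit, among 19235 genes of 53465 that did, and they comprised 29 ligands, 17 receptors and 4 atypical receptors. The rule used expression level only, not diet or strain. Just inside the limit, Cxcl17 reached 10 counts in 7 mice and Ccl20 and Ccl19 in 8 mice each. Just outside it, Ccl12 and Ccl17 reached 10 counts in 3 mice each. The 18 entries under the limit also included Ccl1, Ccl26, Ccl27b, Ccr4, Ccr8, Cxcl3 and Cxcl15, the Ccl21 genes, which were listed at 0 in every mouse, and extra copies of Ccl19, Ccl21 and Ccl27 on unplaced scaffolds. Since such near-identical copies can split or lose reads, the counts of Ccl19 and Ccl27a are uncertain.

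Bulk RNA sequencing was done on perfused livers of 93 male mice of 7 strains, of which A/J, C57BL/6J, DBA/2J and 129S1/SvImJ are classical laboratory strains and CAST/EiJ, PWK/PhJ and WSB/EiJ were derived from wild mice. All mice, controls included, were housed at thermoneutrality (30 °C) from 6 wk of age, received either a control diet (CD, 10% of energy from fat) or a Western diet (WD, 40% of energy from fat) for 17 wk that began when they were 7 wk old, and were killed at 24 wk after a 4 h fast. Each strain and diet was represented by 5 to 8 mice. On CD there were 5 A/J mice, 6 each of DBA/2J, WSB/EiJ and PWK/PhJ, 7 each of 129S1/SvImJ and CAST/EiJ and 8 C57BL/6J mice. On WD there were 6 each of A/J, 129S1/SvImJ and WSB/EiJ, 7 each of DBA/2J and PWK/PhJ and 8 each of C57BL/6J and CAST/EiJ. The mice came in 7 cohorts, 2 per strain and 3 for CAST/EiJ, and each cohort of a strain held both diets. Whole livers were profiled, so fewer or more cells of a type and less or more RNA per cell cannot be told apart.

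Chemokines are small secreted or membrane-bound proteins that direct the movement of leukocytes along concentration gradients. They bind membrane receptors that signal through inhibitory G proteins, and the atypical receptors take up chemokines without that signal. In the liver, resident Kupffer cells, stellate cells, endothelium and stressed hepatocytes release ligands such as CCL2, and circulating monocytes that carry CCR2 enter the tissue in response. CXCR2 ligands draw neutrophils, CXCR3 ligands draw T cells, and CXCL12 is a largely constitutive ligand of sinusoidal lining cells.

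The genes lay in clusters on the mouse genome (GRCm38). Chromosome 11 held 12 of the 50 genes, among them Ccl2 (ENSMUSG00000035385, chr11:82035571-82037453, plus strand), Ccl7, Ccl11, Ccl8, Ccl5, Ccl9, Ccl6, Ccl3 and Ccl4 in that order. Chromosome 9 also held 12, with the receptors Ccr1, Ccr1l1, Ccr3 and Ccr2 (ENSMUSG00000049103, chr9:124101950-124113557, plus strand) close together, and chromosome 5 held 8, with Cxcl5, Cxcl1 and Cxcl2 close to Cxcl9, Cxcl10 and Cxcl11. Exons of 11 of the 50 genes overlapped those of another annotated gene, on the same strand for Ackr1 (with Cadm3) and Ccr9 (with Gm17200), so their counts may hold reads of the partner.

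RefSeq promoters (the 250 bases before the annotated start, build GRCm38.p6) were at hand for 36 of the 50 genes, 40 promoters in all. A kappaB-like stretch, GGGA and TTTCC with any base between them, on either strand, was in 0.36% of 32536 distinct promoters of this length and in 3 of the 40, those of Cxcl1, Cxcl2 and Ccr3. An ISRE-like stretch, GAAA and GAAA with any 2 bases between them, on either strand, was in 2.98% of all promoters and again in 3 of the 40, those of Cxcl10, Cxcl14 and Ccl19. A GAS-like stretch, TTC and GAA with any 3 bases between them, was in 7.04% of all promoters and in 3 of the 40 (Ccr1l1, Ccr6 and Cxcl14), and TATAAA was in 12.3% of all and in 11 of the 40. The Cxcl1, Cxcl2 and Cxcl10 promoters are shown because these neighbouring ligands on chromosome 5 carry such stretches and differed in how many strains responded to diet. They lie at chr5:90890995-90891244 (plus strand), chr5:90903649-90903898 (plus strand) and chr5:92348890-92349139 (minus strand), are written 5′ to 3′, and end at the base before the start. Capitals mark the match, which lay 71 to 62 bases before the start of Cxcl1, 97 to 88 bases before that of Cxcl2 and 213 to 204 bases before that of Cxcl10.
Cxcl1: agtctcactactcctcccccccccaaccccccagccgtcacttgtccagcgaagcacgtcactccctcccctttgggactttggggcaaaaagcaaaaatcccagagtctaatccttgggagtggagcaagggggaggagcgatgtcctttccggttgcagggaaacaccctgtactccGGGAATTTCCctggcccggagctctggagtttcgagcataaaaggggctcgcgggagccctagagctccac
Cxcl2: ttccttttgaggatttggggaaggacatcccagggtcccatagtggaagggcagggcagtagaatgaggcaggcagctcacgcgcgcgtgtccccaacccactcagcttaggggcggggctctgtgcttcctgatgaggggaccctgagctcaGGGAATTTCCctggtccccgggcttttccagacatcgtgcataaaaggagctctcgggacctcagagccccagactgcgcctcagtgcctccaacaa
Cxcl10: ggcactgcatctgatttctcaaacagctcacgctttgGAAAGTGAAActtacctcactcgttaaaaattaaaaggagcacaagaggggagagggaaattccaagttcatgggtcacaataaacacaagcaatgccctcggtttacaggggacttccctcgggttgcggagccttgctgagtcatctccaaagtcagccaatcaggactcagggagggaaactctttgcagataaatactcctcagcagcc
The letters found were identical in Cxcl1 and Cxcl2. Only these exact patterns were searched, so close variants, such as gggaaattcc in the Cxcl10 promoter, were neither counted nor marked. A match of letters is a description and does not show that a factor binds there, and a missing match does not show that none does.

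Depth was even, with 40020424 to 49894856 counts on genes per mouse (median 46618609). Reads of all strains were mapped to the C57BL/6J genome, and the mean share of unmapped reads per group ran from 2.11% in A/J on WD to 13.3% in CAST/EiJ on WD, so a level difference between strains cannot be told apart from a difference in mapping. A few mice stood apart. C57BL/6J CD mouse 2 had the highest level of its group, far from the next mouse, for 8 of the 25 genes followed in detail, and its summed cholangiocyte markers were 68.8 CPM (TMM-scaled counts relative to library size) against a group median of 12.5. C57BL/6J WD mouse 3 had summed cholangiocyte markers of 49.7 CPM against a group median of 13.1, and A/J WD mouse 3 had summed neutrophil markers of 27.0 CPM against a group median of 2.32. Calls in which these mice lay far from the rest of their group are given with and without them.

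The first question was how the Western diet changed the chemokine system in each strain. A differentially expressed gene (DEG) was one with a Benjamini-Hochberg adjusted p below 0.05 in limma over all 19110 genes tested. In 129S1/SvImJ, 26 of the 50 chemokine genes (52%) were upregulated on WD and 1 was downregulated, while 14.5% of all genes were upregulated and 13.6% downregulated. In C57BL/6J, 24 (48%) were upregulated and 4 downregulated, against 14.3% and 11.9% of all genes. In PWK/PhJ, 20 (40%) were upregulated and 1 downregulated, against 15.1% and 14.5% of all genes. WSB/EiJ followed with 9 (18%) upregulated and 1 downregulated, against 4.97% and 3.97%.

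The remaining 3 strains had shares near or below those of all genes. In A/J, 3 chemokine genes (6%) were upregulated and 1 downregulated, against 4.39% and 4.64%. In CAST/EiJ, 2 (4%) were upregulated and 3 (6%) downregulated, against 9.77% and 9.73%. In DBA/2J, 2 (4%) were upregulated and 2 downregulated, against 10.2% and 7.77%.

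The median log2 fold change over the 50 genes was 1.11 in 129S1/SvImJ, 0.75 in C57BL/6J, 0.71 in PWK/PhJ, 0.59 in WSB/EiJ, 0.35 in A/J, 0.15 in CAST/EiJ and −0.08 in DBA/2J, while the median over all genes tested lay between −0.01 and 0.02 in every strain. With genes of no counts in a group set at the bound that 3 counts allow, the WSB/EiJ median was 0.54 and the others did not change. The limit of 10 counts in 5 mice was met only through WD mice by some genes: Ccl19, Ccl20, Ccl7, Ccr10, Ccr6 and Cxcl17 reached it in fewer than 5 CD mice. Tests of a rise on WD in these genes are therefore not independent of the rule. Among the 17 genes with at least 10 counts in every mouse, 8 were upregulated in C57BL/6J, 7 in 129S1/SvImJ and 6 in PWK/PhJ, against 16%, 13.9% and 14.6% of the 12181 genes with such counts. In WSB/EiJ and A/J 1 of the 17 was upregulated, against 5.66% and 5.18%, and in DBA/2J and CAST/EiJ 0 passed in limma, against 11.6% and 11.9%. Those of the 17 that were downregulated numbered 3 in C57BL/6J, 2 in DBA/2J and 3 in CAST/EiJ. The shares of all genes with such counts were 15.1%, 10.7% and 13.2%, so these counts were near them. There was 1 each in 129S1/SvImJ, WSB/EiJ and PWK/PhJ, against 19%, 5.29% and 19.4%, and 0 in A/J, against 6.25%. Of the 50 genes, 33 were upregulated in at least 1 strain and 17 of them in 3 or more strains, against 37.6% and 9.99% of all genes. Those downregulated in at least 1 strain numbered 9, and Cxcl12 alone fell in 3, against 34.9% and 8.01% of all genes. Ccl6 rose in 3 strains and fell in DBA/2J. The 9 genes called in no strain were Ccl11, Ccl27a, Ccl28, Cxcl11, Cxcr1, Cxcr5, Cxcr6, Xcl1 and Xcr1.

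**Figure D1:**
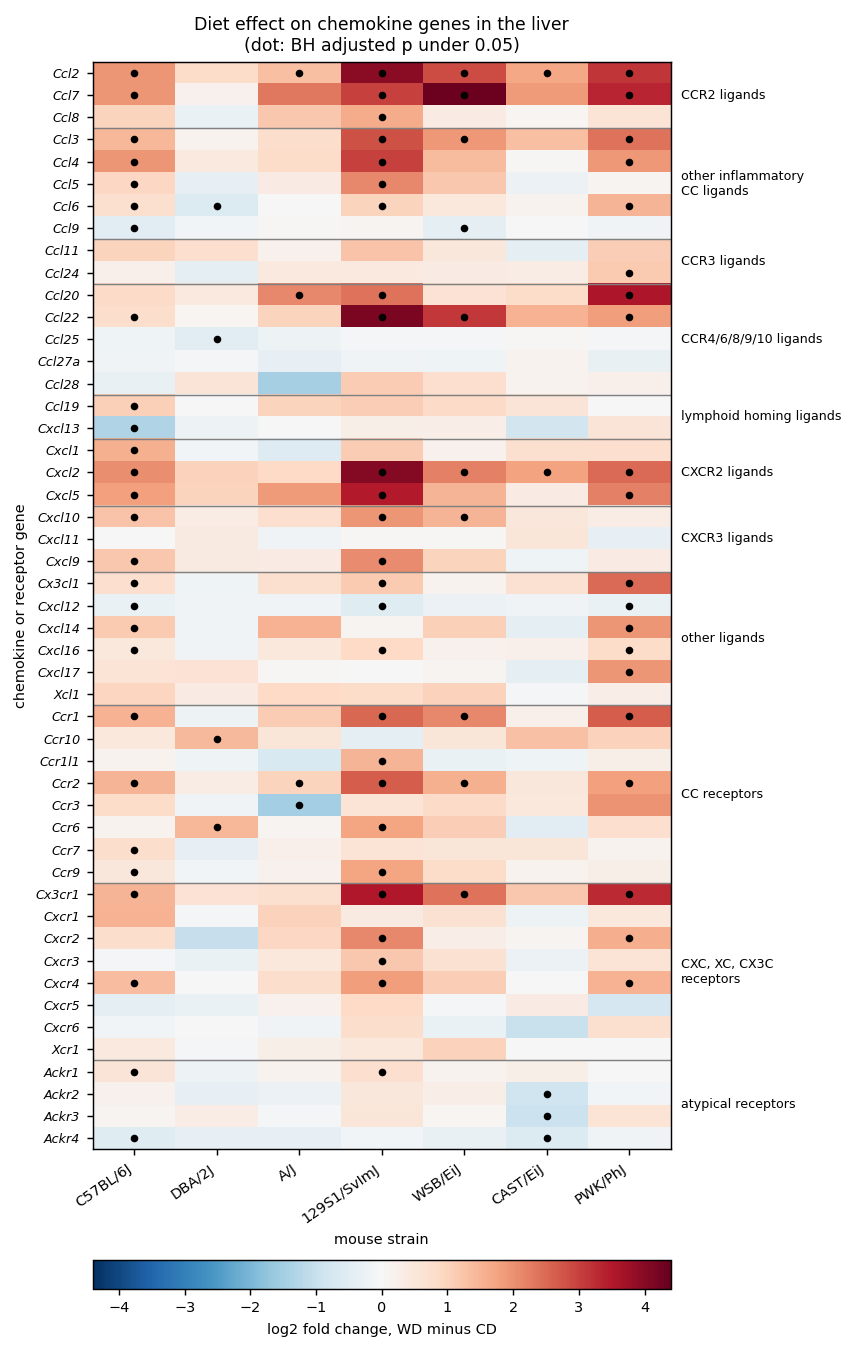
Map of the diet effect on 49 chemokine and receptor genes, in rows by role, in the 7 strains, in columns. Colour is the log2 fold change of WD over CD and a dot marks an adjusted p under 0.05. Dots are dense in C57BL/6J (27 genes), 129S1/SvImJ (26) and PWK/PhJ (20) and sparse in DBA/2J (4) and A/J (4).

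In C57BL/6J the counts moved with the mice that stood apart and with the cohorts. Without CD mouse 2 there were 27 genes upregulated and 6 downregulated, without WD mouse 3 there were 17 and 4, and without both there were 25 and 5, the last being a setting chosen after the data were seen. With cohort as a covariate there were 19 and 4. A fit to this strain alone tested 40 of the 50 genes and called 13 upregulated and 1 downregulated, and of the 24 upregulated genes it tested 23. The A/J counts were less stable. Without WD mouse 3, 1 gene was upregulated and 1 downregulated, and leaving out each mouse in turn gave 0 to 6 upregulated. The mean share of unmapped reads moved with diet too, most in PWK/PhJ (3.50% ± 0.708 on CD, SD, n = 6, and 7.88% ± 1.18 on WD, SD, n = 7). It was also higher on WD in WSB/EiJ (4.52% and 7.42%), CAST/EiJ (10.8% and 13.3%), 129S1/SvImJ (4.56% and 5.57%) and C57BL/6J (2.23% and 2.82%), and lower on WD in DBA/2J (6.45% and 4.77%) and A/J (2.25% and 2.11%), and its part in the results was not tested. Within cohorts, 97 of the 99 gene and strain pairs that were DEGs had the same direction in every cohort of the strain. The size was less even, and in 16 of the 99 pairs the log2 differences of the cohorts lay more than 1 apart. These were Ccl3, Cxcl1, Cxcl9 and Cxcr4 in C57BL/6J, Ccl22, Ccr1, Ccr2 and Cx3cr1 in WSB/EiJ, Ackr2, Ackr3, Ccl2 and Cxcl2 in CAST/EiJ, Ccl4 and Cxcl17 in PWK/PhJ, and Ccr1l1 and Cxcl5 in 129S1/SvImJ. With cohort as a covariate, 7 calls on the genes followed in detail were lost. They were Ccl22, Cx3cl1 and Cxcl5 in C57BL/6J (adjusted p = 0.0731, 0.113 and 0.18), Ccl20 and Ccr2 in A/J (0.0537 and 0.0936) and Ccl2 and Cxcl2 in CAST/EiJ (0.0614 and 0.0924).

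The ligands of CCR2, the receptor that brings inflammatory monocytes out of the blood, are taken first. Ccl2, the main such ligand, was upregulated in 6 strains, more than any other of the 50 genes. In 129S1/SvImJ its level was 0.217 to 0.443 CPM on CD (median 0.294) and 3.18 to 5.74 CPM on WD (median 5.25). The groups did not overlap and the fitted change was 15.8-fold (log2 fold change 3.98 ± 0.41, SE, adjusted p = 5.37e-12). In PWK/PhJ, Ccl2 ran from 0.169 to 0.73 CPM on CD (median 0.454) and from 2.21 to 5.86 CPM on WD (median 4.01), again without overlap (8.88-fold, adjusted p = 5.58e-10). In WSB/EiJ it ran from 0.13 to 0.307 CPM on CD (median 0.187) and from 0.798 to 2.41 CPM on WD (median 1.75), a 7.31-fold change (adjusted p = 6.79e-05). C57BL/6J mice started higher, at 0.433 to 3.26 CPM on CD (median 1.32), and reached 2.73 to 7.82 CPM on WD (median 5.1), with overlap (3.81-fold, adjusted p = 4.93e-09).

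The other strains gave smaller Ccl2 responses. The 5 A/J mice on CD had 0.647, 0.687, 0.63, 0.845 and 0.41 CPM, and those on WD ran from 0.996 to 2.46 CPM (median 1.46). The groups did not overlap (2.5-fold, adjusted p = 0.0354), but the call was lost without WD mouse 3 (adjusted p = 0.085) and in 6 other analyses that left out 1 mouse. In CAST/EiJ, Ccl2 ran from 0.027 to 0.33 CPM on CD (median 0.219) and from 0.191 to 0.82 CPM on WD (median 0.528), a 3.24-fold change (adjusted p = 0.026) that was lost without CD mouse 5 (adjusted p = 0.106) or CD mouse 7 (adjusted p = 0.0812). In DBA/2J it ran from 0.515 to 0.942 CPM on CD (median 0.789) and from 0.695 to 2.16 CPM on WD (median 1.59), and did not pass the test (1.74-fold, adjusted p = 0.153). Its log2 difference there was 1.46 in cohort 4 and −0.08 in cohort 5.

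Whether the strains differed in this response was tested directly. Over the 7 strains, the diet effect on Ccl2 differed (F test, adjusted p = 5.6e-05), and against the mean of the other 6 strains it was larger in 129S1/SvImJ (log2 difference 2.02 ± 0.45, SE, adjusted p = 0.00272) and smaller in DBA/2J (log2 difference −1.69 ± 0.43, SE, adjusted p = 0.00718). Ccl7, a neighbour of Ccl2 that also binds CCR2, was near the detection limit on CD in most strains. In WSB/EiJ it ran from 0 to 0.0523 CPM on CD (median 0.049) and from 0.748 to 1.23 CPM on WD (median 0.959), without overlap, and this 20.1-fold fitted change was the largest of any chemokine gene in any strain (log2 fold change 4.33 ± 0.68, SE, adjusted p = 2.13e-06). It also rose in C57BL/6J (3.81-fold), 129S1/SvImJ (8.09-fold) and PWK/PhJ (10.3-fold). Its diet effect in DBA/2J was below the mean of the other 6 strains (log2 difference −2.6 ± 0.68, SE, adjusted p = 0.00908). However, Ccl7 reached 10 counts in 4 CD mice and 30 WD mice. Its rises on WD, their rank and its DBA/2J contrast are therefore not independent of the rule. Ccl8, a further CCR2 ligand, was upregulated in 129S1/SvImJ (3.09-fold, adjusted p = 0.0217), and its fitted changes in the other strains, 0.821-fold to 2.25-fold, did not pass the test. Ccl11, an eosinophil attractant that lies between Ccl7 and Ccl8, was a DEG in no strain by limma, with fitted changes of 0.752-fold to 2.38-fold.

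**Figure D2:**
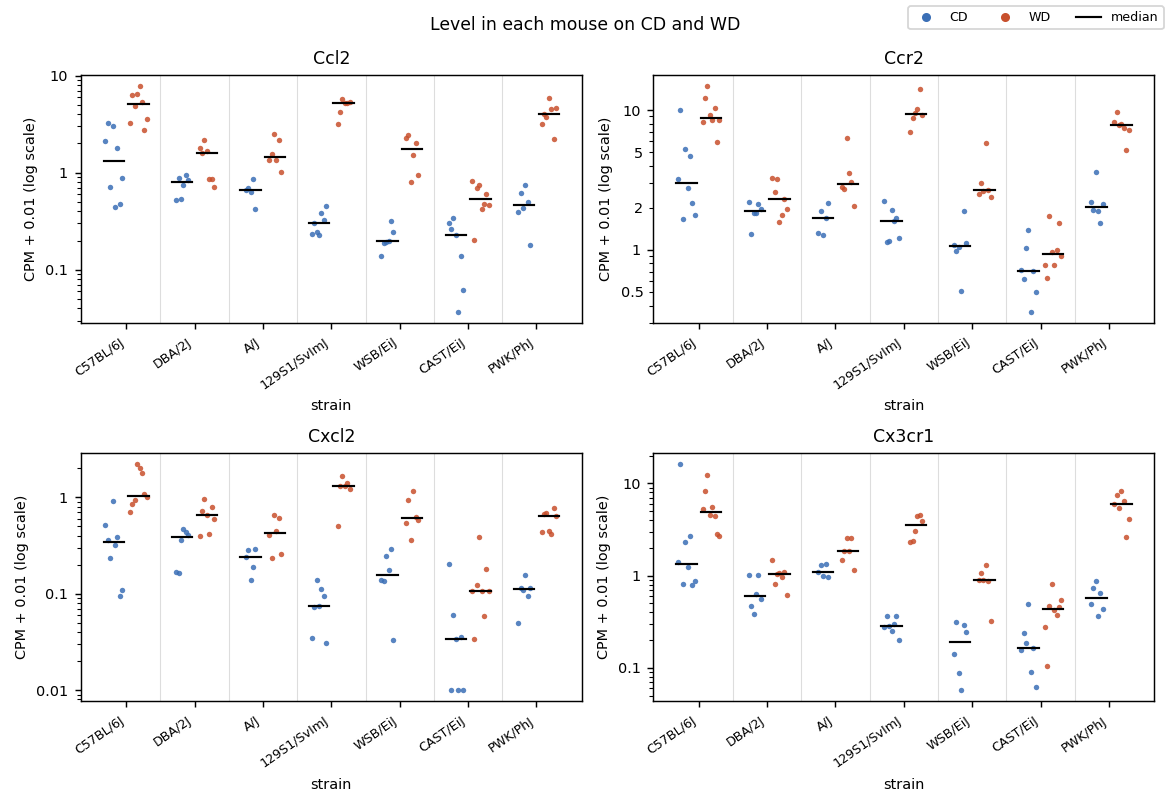
Levels of Ccl2, Ccr2, Cxcl2 and Cx3cr1 in each of the 93 mice, as CPM plus 0.01 on a log axis, by strain, with CD in blue, WD in red and a bar at the group median. CD and WD mice do not overlap for any of the 4 genes in 129S1/SvImJ, WSB/EiJ and PWK/PhJ, and overlap for all 4 in C57BL/6J, DBA/2J and CAST/EiJ.

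The inflammatory CC ligands Ccl3, Ccl4, Ccl5, Ccl6 and Ccl9, attract monocytes, macrophages and T cells. Of these 5 ligands, 4 were upregulated in C57BL/6J, 4 in 129S1/SvImJ and 3 in PWK/PhJ, and Ccl9 was upregulated in no strain. Ccl3 (macrophage inflammatory protein 1 alpha) went from 0 to 0.148 CPM on CD (median 0.105) to 0.229 to 0.806 CPM on WD (median 0.624) in 129S1/SvImJ. The groups did not overlap (6.92-fold, adjusted p = 1.78e-05). It also rose in C57BL/6J (2.76-fold, adjusted p = 4.03e-05, with log2 differences of 2.12 in cohort 1 and 0.36 in cohort 2), PWK/PhJ (5.3-fold, adjusted p = 0.000122) and WSB/EiJ (3.79-fold, adjusted p = 0.0227), the last being lost without WD mouse 4 (adjusted p = 0.0566) or CD mouse 4 (adjusted p = 0.0865). Its close relative Ccl4 rose 3.82-fold in C57BL/6J, 8.09-fold in 129S1/SvImJ and 3.78-fold in PWK/PhJ, and its diet effect in 129S1/SvImJ was above the mean of the other 6 strains by 1.93 ± 0.48 on the log2 scale (SE, adjusted p = 0.00784). Ccl5, a T cell attractant that the rule for genes described in detail did not pick, rose in C57BL/6J (1.9-fold) and 129S1/SvImJ (4.31-fold).

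Ccl6, a mouse ligand of CCR1 that myeloid cells make, moved in both directions. In C57BL/6J it went from 12.8 to 34.3 CPM on CD (median 17.3) to 23.2 to 41.2 CPM on WD (median 31.8), a 1.65-fold rise with overlap (adjusted p = 0.000357). In 129S1/SvImJ it went from 6.3 to 11.2 CPM (median 9.46) to 13.2 to 20.3 CPM (median 17.2), without overlap (1.97-fold, adjusted p = 0.000243). In DBA/2J it fell, from 11.8 to 20.7 CPM on CD (median 16.6) to 7.75 to 14.8 CPM on WD (median 10.5), a 0.655-fold change with overlapping groups (adjusted p = 0.0291). PWK/PhJ had the lowest levels, 0.317 to 1.63 CPM on CD (median 1.28), and rose to 2.31 to 4.64 CPM on WD (median 2.69), without overlap (2.8-fold, adjusted p = 0.0037).

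The diet effect on Ccl6 differed between strains (F test, adjusted p = 6.5e-05), and that in DBA/2J was below the mean of the other 6 (log2 difference −1.24 ± 0.24, SE, adjusted p = 0.000315). The DBA/2J fall itself was less secure: it was lost in the edgeR test (adjusted p = 0.0859), in DESeq2 (adjusted p = 0.0916) and in 5 of the analyses that left out 1 mouse. Ccl9, a CCR1 ligand next to Ccl6 that was among the most abundant of the 50 genes, was looked at after its values were seen. It fell in C57BL/6J (0.713-fold, adjusted p = 0.00185) and WSB/EiJ (0.738-fold, adjusted p = 0.044).

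Among ligands of the remaining CC receptors, Ccl20 and Ccl22 stood out. Ccl20, the ligand of CCR6 on lymphocytes, had no counts in any CD mouse of DBA/2J, A/J, 129S1/SvImJ, WSB/EiJ or CAST/EiJ. In PWK/PhJ it went from 0 to 0.125 CPM on CD (median 0.0513) to 0.319 to 0.751 CPM on WD (median 0.698). The groups did not overlap and the change was 11.8-fold (adjusted p = 4.38e-11), a diet effect above the mean of the other 6 strains by 2.35 ± 0.48 on the log2 scale (SE, adjusted p = 0.000254). However, Ccl20 met the limit of 10 counts in 0 CD mice and 8 WD mice, every PWK/PhJ WD mouse among them. Its PWK/PhJ tests therefore used the values that admitted it and are not independent of the rule. In 129S1/SvImJ on WD it ran from 0 to 0.236 CPM (median 0.092) and was at least 9.84-fold higher than on CD, taking 3 counts over the CD group as its limit (adjusted p = 0.000944). In A/J on WD it ran from 0.0202 to 0.123 CPM (median 0.0312), at least 3.43-fold higher (adjusted p = 0.0308), a call lost in 7 of 11 analyses that left out 1 mouse.

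Ccl22, which attracts regulatory T cells through CCR4, changed most in 129S1/SvImJ. There it went from 0 to 0.0638 CPM on CD (median 0.042) to 0.374 to 1.19 CPM on WD (median 0.688), without overlap (17.6-fold, adjusted p = 1.32e-07). It rose 8.68-fold in WSB/EiJ (adjusted p = 0.000813) and 3.56-fold in PWK/PhJ (adjusted p = 0.00515). In C57BL/6J it rose 1.73-fold (adjusted p = 0.0218), from the highest CD level of the 7 strains (0.295 to 2.65 CPM, median 0.66), and that call was lost in 5 of 16 analyses that left out 1 mouse (WD mouse 3 and CD mice 3, 5, 7 and 8, adjusted p up to 0.0927) and in the edgeR test (adjusted p = 0.372). Without CD mouse 2 and WD mouse 3 the Ccl22 log2 fold change in C57BL/6J was 0.91 (adjusted p = 0.00741). Against the mean of the other 6 strains, the diet effect on Ccl22 was larger in 129S1/SvImJ (log2 difference 2.75 ± 0.65, SE, adjusted p = 0.00493) and smaller in DBA/2J (−1.96 ± 0.60, adjusted p = 0.0283) and in C57BL/6J (−1.16 ± 0.37, adjusted p = 0.0494).

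Ccl27a, a CCR10 ligand, was not a DEG in any strain by limma, with fitted changes between 0.775-fold and 1.13-fold. Ccl25, a CCR9 ligand named after its values were seen, fell in DBA/2J (0.733-fold, adjusted p = 0.00114). Ccl24, a CCR3 ligand made by macrophages and likewise named afterwards, rose in PWK/PhJ (2.25-fold, adjusted p = 0.000346). Of the lymphoid homing ligands, Ccl19 rose (2.09-fold, adjusted p = 0.0159) and Cxcl13 fell (0.4-fold, adjusted p = 0.0135) in C57BL/6J. Ccl19 reached 10 counts in 2 CD and 6 WD mice, so its rise is not independent of the rule.

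Of the CXCR2 ligands, which draw neutrophils, Cxcl2 changed in more strains than its neighbour Cxcl1, whose promoter carries the same kappaB-like letters. Cxcl2 was upregulated in 5 strains. In 129S1/SvImJ it went from 0.0211 to 0.128 CPM on CD (median 0.065) to 0.499 to 1.65 CPM on WD (median 1.3), without overlap (16.3-fold, log2 fold change 4.03 ± 0.47, SE, adjusted p = 3.08e-10). Its rise was 5.6-fold in PWK/PhJ (adjusted p = 2.26e-05) and 4.6-fold in WSB/EiJ (adjusted p = 0.000567), both without overlap, and 4.11-fold in C57BL/6J (adjusted p = 2.32e-07), with overlap. In CAST/EiJ it was 3.38-fold (adjusted p = 0.0445), with overlap, and was lost in 11 of 15 analyses that left out 1 mouse. Within CAST/EiJ cohort 1, which held 1 CD mouse, the Cxcl2 difference had the opposite sign (log2 difference −1.07).

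Against the mean of the other 6 strains, the diet effect on Cxcl2 was larger in 129S1/SvImJ by 2.30 ± 0.51 on the log2 scale (SE, adjusted p = 0.00262). Cxcl1, named after its values were seen, was about as abundant on CD in DBA/2J (11.9 to 122 CPM, median 41.5) as on WD (19.8 to 54.2 CPM, median 42.3), with overlapping groups. It rose in C57BL/6J alone (2.96-fold, adjusted p = 0.00447), from 2.95 to 20.9 CPM on CD (median 7.11) to 8.51 to 93.6 CPM on WD (median 22.3). That rise was uneven between cohorts, with log2 differences of 0.82 in cohort 1 and 2.97 in cohort 2, and the 3 WD mice of cohort 2 had the highest levels (57.1, 93.6 and 39.7 CPM). Whether the Cxcl1 diet effect differed between strains did not pass the test (F test, adjusted p = 0.0585).

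Cxcl5, another ligand of CXCR2, was upregulated in PWK/PhJ, 129S1/SvImJ and C57BL/6J. In PWK/PhJ it went from 0.0403 to 0.233 CPM on CD (median 0.102) to 0.359 to 0.799 CPM on WD (median 0.489), without overlap (4.64-fold, adjusted p = 0.0155). In 129S1/SvImJ it ran from 0 to 0.547 CPM on CD (median 0.0211) and from 0.0806 to 8.38 CPM on WD (median 0.262), and WD mouse 2 held the highest value, with 2.29 CPM in the next mouse (11.3-fold, adjusted p = 0.000695). In C57BL/6J it ran from 0.0198 to 2.55 CPM on CD (median 0.0805) and from 0.122 to 1.32 CPM on WD (median 0.435). There CD mouse 2 held the highest value of both groups, and the call (3.45-fold, adjusted p = 0.0282) was not made by edgeR (adjusted p = 0.644) or DESeq2 (adjusted p = 0.688). Without CD mouse 2 and WD mouse 3 the Cxcl5 log2 fold change was 2.22 (adjusted p = 0.0103).

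Of the interferon-inducible CXCR3 ligands, Cxcl10 was upregulated in 3 strains. In 129S1/SvImJ it went from 1.23 to 3.51 CPM on CD (median 1.4) to 3.29 to 10.8 CPM on WD (median 7.71), with a slight overlap (3.83-fold, adjusted p = 1.86e-07). In C57BL/6J it went from 1.53 to 7.73 CPM (median 2.92) to 4.87 to 11 CPM (median 7.9), with overlap (2.37-fold, adjusted p = 7.8e-06). In WSB/EiJ the change was 2.82-fold (adjusted p = 0.0237) and was lost without WD mouse 1, WD mouse 2 or CD mouse 1 (adjusted p = 0.0508, 0.0704 and 0.064).

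The diet effect on Cxcl10 was larger in 129S1/SvImJ than the mean of the other 6 strains by 1.17 ± 0.33 on the log2 scale (SE, adjusted p = 0.019). PWK/PhJ, which had large Ccl2 and Cxcl2 responses, gave a Cxcl10 ratio of 1.25-fold that did not pass the test (adjusted p = 0.451). Cxcl9, named after its values were seen, rose in 129S1/SvImJ (4.24-fold, adjusted p = 8.96e-07) and C57BL/6J (2.29-fold, adjusted p = 0.000161), where the log2 difference was 0.28 in cohort 1 and 2.38 in cohort 2. Cxcl11, the neighbour of both, was a DEG in no strain by limma, with fitted changes of 0.785-fold to 1.46-fold. The annotation used here lists Cxcl11 as a polymorphic pseudogene.

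Cxcl12, which retains CXCR4-bearing cells, was the most abundant of the 50 genes per kilobase of exon, and the only one downregulated in 3 strains. In 129S1/SvImJ it went from 286 to 444 CPM on CD (median 336) to 215 to 264 CPM on WD (median 228), without overlap (0.683-fold, adjusted p = 1.7e-05). In C57BL/6J it ran from 233 to 404 CPM on CD (median 302) and from 205 to 295 CPM on WD (median 247), with overlap (0.813-fold, adjusted p = 0.01). In PWK/PhJ it ran from 313 to 380 CPM on CD (median 359) and from 220 to 350 CPM on WD (median 298), with overlap (0.813-fold, adjusted p = 0.0201), and the call was lost without WD mouse 4 (adjusted p = 0.0879) or WD mouse 5 (adjusted p = 0.0603). The other 4 strains had ratios of 0.828-fold to 0.907-fold that did not pass the test, and a difference in this effect between strains did not pass either (F test, adjusted p = 0.138).

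**Figure D3:**
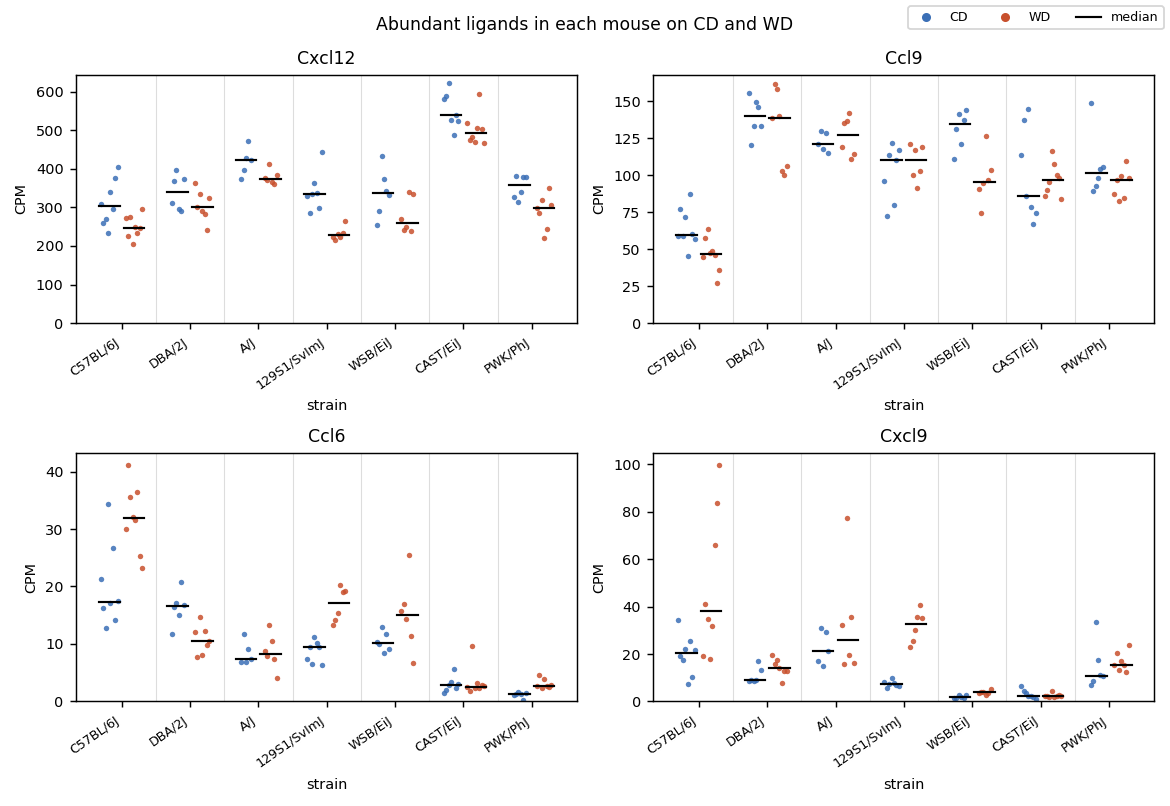
Levels of 4 abundant ligands, Cxcl12, Ccl9, Ccl6 and Cxcl9, in each of the 93 mice, as CPM on a linear axis from 0, by strain, with CD in blue, WD in red and a bar at the group median. The median of Cxcl12 is lower on WD in every strain, and in C57BL/6J 3 WD mice hold the highest Cxcl9 levels (65.8, 83.8 and 99.9 CPM).

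The membrane-bound ligands Cxcl16, which binds CXCR6, and Cx3cl1 (fractalkine), which binds CX3CR1, both rose in PWK/PhJ, 129S1/SvImJ and C57BL/6J. Cxcl16 went from 6.42 to 10.6 CPM on CD (median 7.63) to 10.9 to 15.8 CPM on WD (median 14.4) in 129S1/SvImJ, without overlap (1.82-fold, adjusted p = 5.25e-06). In PWK/PhJ it went from 5.51 to 9.26 CPM (median 8.53) to 10.9 to 16.7 CPM (median 13.7), without overlap (1.74-fold, adjusted p = 1.62e-05), and in C57BL/6J it rose 1.38-fold (adjusted p = 0.00148). Cx3cl1 went from 0.232 to 0.483 CPM on CD (median 0.379) to 1.05 to 3.02 CPM on WD (median 2.38) in PWK/PhJ. The groups did not overlap (5.65-fold, adjusted p = 1.65e-06), and the effect was above the mean of the other 6 strains by 1.96 ± 0.45 on the log2 scale (SE, adjusted p = 0.00111).

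In 129S1/SvImJ, Cx3cl1 rose 2.23-fold without overlap (adjusted p = 0.00798). In C57BL/6J its highest values were in CD mouse 2 (8.3 CPM, next 2.08 CPM) and WD mouse 3 (10.6 CPM, next 2.52 CPM), both with high cholangiocyte markers, and the call (1.66-fold, adjusted p = 0.027) was lost in 6 of 16 analyses that left out 1 mouse, with the highest adjusted p without WD mouse 3 (0.201), and in edgeR (adjusted p = 0.169). Without both mice, a setting added after the data were seen, it was 0.79 on the log2 scale (adjusted p = 0.000557). Summed cholangiocyte markers also differed by diet in PWK/PhJ, where 4 of the 5 markers were upregulated, against 15.1% of all genes. The sum went from 5.47 to 8.82 CPM on CD (median 7.82) to 9.33 to 26.9 CPM on WD (median 18.2). The part of these markers in the Cx3cl1 result was not tested. Cxcl14, named after its values were seen, rose in PWK/PhJ (3.83-fold, adjusted p = 0.000293) and C57BL/6J (2.24-fold, adjusted p = 0.0282). Cxcl17 rose in PWK/PhJ from 0 to 0.0844 CPM on CD (median 0) to 0 to 0.19 CPM on WD (median 0.0783), a change at the edge of detection (adjusted p = 0.0143). It reached 10 counts in 1 CD and 6 WD mice, so this rise is not independent of the rule.

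Among the 9 CC receptors, 6 were upregulated in 129S1/SvImJ, 5 in C57BL/6J, 3 in PWK/PhJ, 2 in WSB/EiJ, 2 in DBA/2J and 1 in A/J, where the shares of all genes upregulated were 14.5%, 14.3%, 15.1%, 4.97%, 10.2% and 4.39%. Ccr2, the receptor of inflammatory monocytes, rose together with its ligands in 5 strains. Its level in 129S1/SvImJ went from 1.13 to 2.21 CPM on CD (median 1.61) to 6.95 to 14.1 CPM on WD (median 9.38), without overlap (6.32-fold, log2 fold change 2.66 ± 0.26, SE, adjusted p = 1.01e-12). In PWK/PhJ it went from 1.54 to 3.58 CPM (median 2.02) to 5.19 to 9.68 CPM (median 7.77), without overlap (3.53-fold, adjusted p = 1.73e-08). In WSB/EiJ it went from 0.499 to 1.89 CPM (median 1.06) to 2.39 to 5.77 CPM (median 2.67), without overlap (2.94-fold, adjusted p = 0.00172).

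C57BL/6J mice had 1.65 to 10 CPM of Ccr2 on CD (median 2.99) and 5.88 to 14.9 CPM on WD (median 8.79), the overlap being due to CD mouse 2 alone (2.79-fold, adjusted p = 4.93e-09). Without that mouse and WD mouse 3 the Ccr2 log2 fold change was 1.64 (adjusted p = 5.35e-11). In A/J the 5 CD mice had 1.32, 1.9, 1.26, 1.67 and 2.16 CPM and the WD mice 2.05 to 6.31 CPM (median 2.93), with overlap (1.96-fold, adjusted p = 0.0494). That call was lost in 10 of 11 analyses that left out 1 mouse, with an adjusted p of 0.167 without WD mouse 3. The diet effect on Ccr2 was larger in 129S1/SvImJ than the mean of the other 6 strains (log2 difference 1.55 ± 0.30, SE, adjusted p = 0.000468) and smaller in DBA/2J (−1.17 ± 0.33, adjusted p = 0.0196).

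Ccr1, the receptor of Ccl3, Ccl6 and Ccl9 on myeloid cells, rose in 4 strains. It changed 5.73-fold in 129S1/SvImJ (adjusted p = 3.58e-05) and 6.38-fold in PWK/PhJ (adjusted p = 5.47e-05), both without overlap, and 2.85-fold in C57BL/6J (adjusted p = 0.000408), where its log2 fold change was 1.76 without CD mouse 2 and WD mouse 3 (adjusted p = 5.78e-05). Its 4.33-fold change in WSB/EiJ (adjusted p = 0.0252) was lost in 5 of 12 analyses that left out 1 mouse.

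The 2 upregulated genes of DBA/2J were receptors of lymphocytes at low levels, and for neither did the diet effect pass the test against the mean of the other 6 strains (Ccr10, adjusted p = 0.291, and Ccr6, adjusted p = 0.311). Ccr10 reached 10 counts in 1 CD mouse and 11 WD mice, and Ccr6 in 3 and 11. Tests of their rises on WD are therefore not independent of the rule. A fit to DBA/2J alone tested 0 of these 2 genes. Ccr10 went from 0.0221 to 0.0897 CPM on CD (median 0.0659) to 0.0847 to 0.325 CPM on WD (median 0.171), with a slight overlap (2.69-fold, adjusted p = 0.0129). Ccr6 went from 0 to 0.202 CPM (median 0.0766) to 0.107 to 0.214 CPM (median 0.173), with overlap (2.74-fold, adjusted p = 0.0212), and its call was lost without CD mouse 3 (adjusted p = 0.155) or CD mouse 2 (adjusted p = 0.0705) and in edgeR (adjusted p = 0.117). Ccr6 also rose in 129S1/SvImJ (3.33-fold, adjusted p = 0.00978), where its ligand Ccl20 rose as well. Ccr9, whose exons overlap another gene, rose in 129S1/SvImJ (3.31-fold, adjusted p = 1.04e-07) and C57BL/6J (1.42-fold, adjusted p = 0.0374), and Ccr7, the receptor that guides dendritic cells to lymph nodes, rose in C57BL/6J (1.73-fold, adjusted p = 0.0118).

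The sole CC receptor that fell was Ccr3, the eosinophil receptor, in A/J. The 5 A/J CD mice had 2.59, 4.67, 3.02, 2.89 and 2.83 CPM and the 6 WD mice 0.851 to 1.47 CPM (median 1.1). The groups did not overlap (0.352-fold, log2 fold change −1.51 ± 0.41, SE, adjusted p = 0.00952), and the effect was below the mean of the other 6 strains (log2 difference −2.27 ± 0.50, SE, adjusted p = 0.0154). DESeq2 did not call Ccr3 in A/J (adjusted p = 0.0655). Ccr1l1, a mouse gene related to Ccr1, rose in 129S1/SvImJ (2.79-fold, adjusted p = 0.0106), with 0.0787 to 0.408 CPM on WD (median 0.132) against 0 to 0.148 CPM on CD (median 0.0629), and was lost without WD mouse 6 (adjusted p = 0.0558) or CD mouse 6 (adjusted p = 0.0639).

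Among the 8 CXC, XC and CX3C receptors, 4 were upregulated in 129S1/SvImJ, 3 in PWK/PhJ, 2 in C57BL/6J and 1 in WSB/EiJ, against 14.5%, 15.1%, 14.3% and 4.97% of all genes. Cx3cr1, the fractalkine receptor of monocytes and monocyte-derived macrophages, had the largest receptor changes. Its level in 129S1/SvImJ went from 0.19 to 0.358 CPM on CD (median 0.277) to 2.33 to 4.52 CPM on WD (median 3.49), without overlap (11.5-fold, log2 fold change 3.52 ± 0.53, SE, adjusted p = 2.69e-07). Its level in PWK/PhJ went from 0.355 to 0.866 CPM (median 0.558) to 2.6 to 8.22 CPM (median 5.99), without overlap (9.74-fold, adjusted p = 9.45e-09). In WSB/EiJ it went from 0.0475 to 0.304 CPM (median 0.182) to 0.316 to 1.3 CPM (median 0.888), without overlap (5.18-fold, adjusted p = 0.0307), a call lost in 5 of 12 analyses that left out 1 mouse.

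In C57BL/6J, Cx3cr1 ran from 0.78 to 16.2 CPM on CD (median 1.33), the highest being CD mouse 2 with 2.7 CPM in the next mouse, and from 2.71 to 12.3 CPM on WD (median 4.89). The call (2.8-fold, adjusted p = 3.25e-05) was not made by edgeR (adjusted p = 0.0814) or DESeq2 (adjusted p = 0.0884). Without CD mouse 2 and WD mouse 3 the log2 fold change was 1.79 (adjusted p = 1.38e-08). Against the mean of the other 6 strains, the diet effect on Cx3cr1 was larger in 129S1/SvImJ by 1.92 ± 0.58 and in PWK/PhJ by 1.64 ± 0.51 on the log2 scale (SE, adjusted p = 0.0313 and 0.0169).

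Cxcr4, the receptor of Cxcl12, moved the opposite way to its ligand in the same 3 strains. It rose 3.58-fold in 129S1/SvImJ, from 0.34 to 0.883 CPM on CD (median 0.672) to 1.51 to 3.65 CPM on WD (median 2.27), without overlap (adjusted p = 0.000115). Its level in PWK/PhJ rose 2.91-fold, from 1.18 to 2.15 CPM (median 1.38) to 2.64 to 5.33 CPM (median 4.34), without overlap (adjusted p = 3.28e-05), and in C57BL/6J it rose 2.57-fold with overlap (adjusted p = 9.43e-05). Cxcr2, the neutrophil receptor, rose in 129S1/SvImJ (4.33-fold, adjusted p = 4.29e-05) and PWK/PhJ (3.02-fold, adjusted p = 0.00172), and in DBA/2J its ratio of 0.496-fold did not pass the test (adjusted p = 0.0608). Cxcr3, the receptor of Cxcl9 and Cxcl10 on T cells, rose in 129S1/SvImJ (2.25-fold, adjusted p = 0.00105).

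Of the 4 atypical receptors, which clear chemokines, 3 were downregulated in CAST/EiJ, against 9.73% of all genes. There Ackr3, which binds CXCL12, went from 1.62 to 10.3 CPM on CD (median 3.91) to 1.42 to 2.74 CPM on WD (median 1.9), with overlap (0.515-fold, adjusted p = 0.00274). Ackr4, which binds CCL19, CCL21 and CCL25, went from 1.65 to 3.2 CPM (median 2.1) to 0.97 to 1.89 CPM (median 1.64), with overlap (0.661-fold, adjusted p = 0.00782). Ackr2, which binds many inflammatory CC ligands and was named after its values were seen, went from 4.57 to 14.4 CPM (median 5.82) to 3.26 to 4.27 CPM (median 3.93), without overlap (0.55-fold, adjusted p = 0.000145). Its log2 difference was −0.37 in cohort 1, −0.29 in cohort 3 and −1.31 in cohort 4.

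The Ackr3 effect in CAST/EiJ was below the mean of the other 6 strains (log2 difference −1.22 ± 0.29, SE, adjusted p = 0.00166). Its log2 difference was 0.10 in cohort 1, −0.30 in cohort 3 and −1.81 in cohort 4, the cohort with the largest fall of Ackr2. There CD mice 5, 6 and 7 held 10.3, 7.31 and 5.17 CPM of Ackr3 and 14.4, 10.7 and 9.28 CPM of Ackr2. CD mouse 4 of that cohort held 1.97 and 4.57 CPM, so the fall lay mostly in some CD mice of 1 cohort. CD mice 5, 6 and 7 also had the lowest Ccl2 of their group (0.027, 0.128 and 0.0517 CPM). Their joint part in these calls was not tested. Ackr4 also fell in C57BL/6J (0.684-fold, adjusted p = 0.00516). Ackr1, which red cells and venular endothelium carry, rose in C57BL/6J from 0.696 to 0.948 CPM (median 0.875) to 0.95 to 1.61 CPM (median 1.19), without overlap (1.5-fold, adjusted p = 0.00415), and in 129S1/SvImJ (1.68-fold, adjusted p = 8.75e-07). Against the mean of the other 6 strains, its diet effect was larger in 129S1/SvImJ (log2 difference 0.59 ± 0.13, SE, adjusted p = 0.0034) and smaller in DBA/2J (−0.53 ± 0.14, adjusted p = 0.00862).

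Tested over the 7 strains at once, the diet effect differed between strains for 28 of the 50 genes (56%), against 36.5% of all genes, led by Ccl2, Ccl6, Ccr2, Ackr1 and Ccl22. Each strain was also set against the mean of the other 6. In 129S1/SvImJ 15 of the 50 genes differed, all with a higher effect, against 6.28% of all genes. In DBA/2J 12 differed, all with a lower effect, against 7.77% of all genes, and in PWK/PhJ 8 differed, all with a higher effect, against 16.3% of all genes, so the PWK/PhJ count was near its background.

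The other 4 strains had few such genes. In CAST/EiJ 2 differed (Ackr2 and Ackr3), against 14.5% of all genes, in C57BL/6J 1 (Ccl22), against 4.69%, and in A/J 1 (Ccr3), against 0.466%. In WSB/EiJ 0 of the 50 passed in limma, with 4 at an unadjusted p under 0.05, against 0.947% of all genes.

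The second question was how the strains differed on the control diet. The CD level differed between strains for 49 of the 50 genes, the exception being Cxcl5, and the same held for 93.7% of all genes. Ccr3 had the smallest p. It ran from 12.5 to 15.8 CPM in DBA/2J (median 13.5), from 2.59 to 4.67 CPM in A/J (median 2.89) and from 0.0211 to 2.08 CPM in 129S1/SvImJ (median 1.71), where CD mouse 7 held 0.0211 CPM and the other 6 mice 1.11 CPM or more. The medians of the other 4 strains were 0.0505 to 0.175 CPM. DBA/2J was above the mean of the other 6 strains by 5.83 ± 0.27 on the log2 scale (SE, adjusted p = 4.9e-33).

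The neighbouring gene Ccr1l1 was also highest in DBA/2J, at 0.448 to 0.708 CPM (median 0.579) against medians of 0 to 0.13 CPM elsewhere (log2 difference 4.17 ± 0.27, SE, adjusted p = 1.5e-24). Cxcl14, an epithelial ligand named after its values were seen, was highest in the same strain. It ran from 5.44 to 27 CPM in DBA/2J (median 18.2), while the 5 A/J mice had 0.0445 to 0.139 CPM (median 0.109). Ccl27a was low in A/J, at 0.485 to 1.35 CPM (median 0.604) against medians of 2.37 to 6.56 CPM elsewhere (log2 difference from the mean of the other 6 −2.39 ± 0.20, SE, adjusted p = 1.7e-17), without overlap with any other strain.

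Both other leading genes were atypical receptors. Ackr4 was highest in PWK/PhJ, at 4.75 to 8.44 CPM (median 7.19) against medians of 1.91 to 2.64 CPM elsewhere, without overlap (log2 difference 1.63 ± 0.10, SE, adjusted p = 1.4e-27). Ackr1 was lowest in C57BL/6J, at 0.696 to 0.948 CPM (median 0.875), and highest in PWK/PhJ, at 3.16 to 5.66 CPM (median 4.44). The C57BL/6J range touched that of WSB/EiJ (0.935 to 1.83 CPM), the next strain in order. Ccl20, at 0 in most CD mice, was above the mean of the other 6 strains in PWK/PhJ by 2.06 ± 0.42 on the log2 scale (SE, adjusted p = 1.8e-05).

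**Figure D4:**
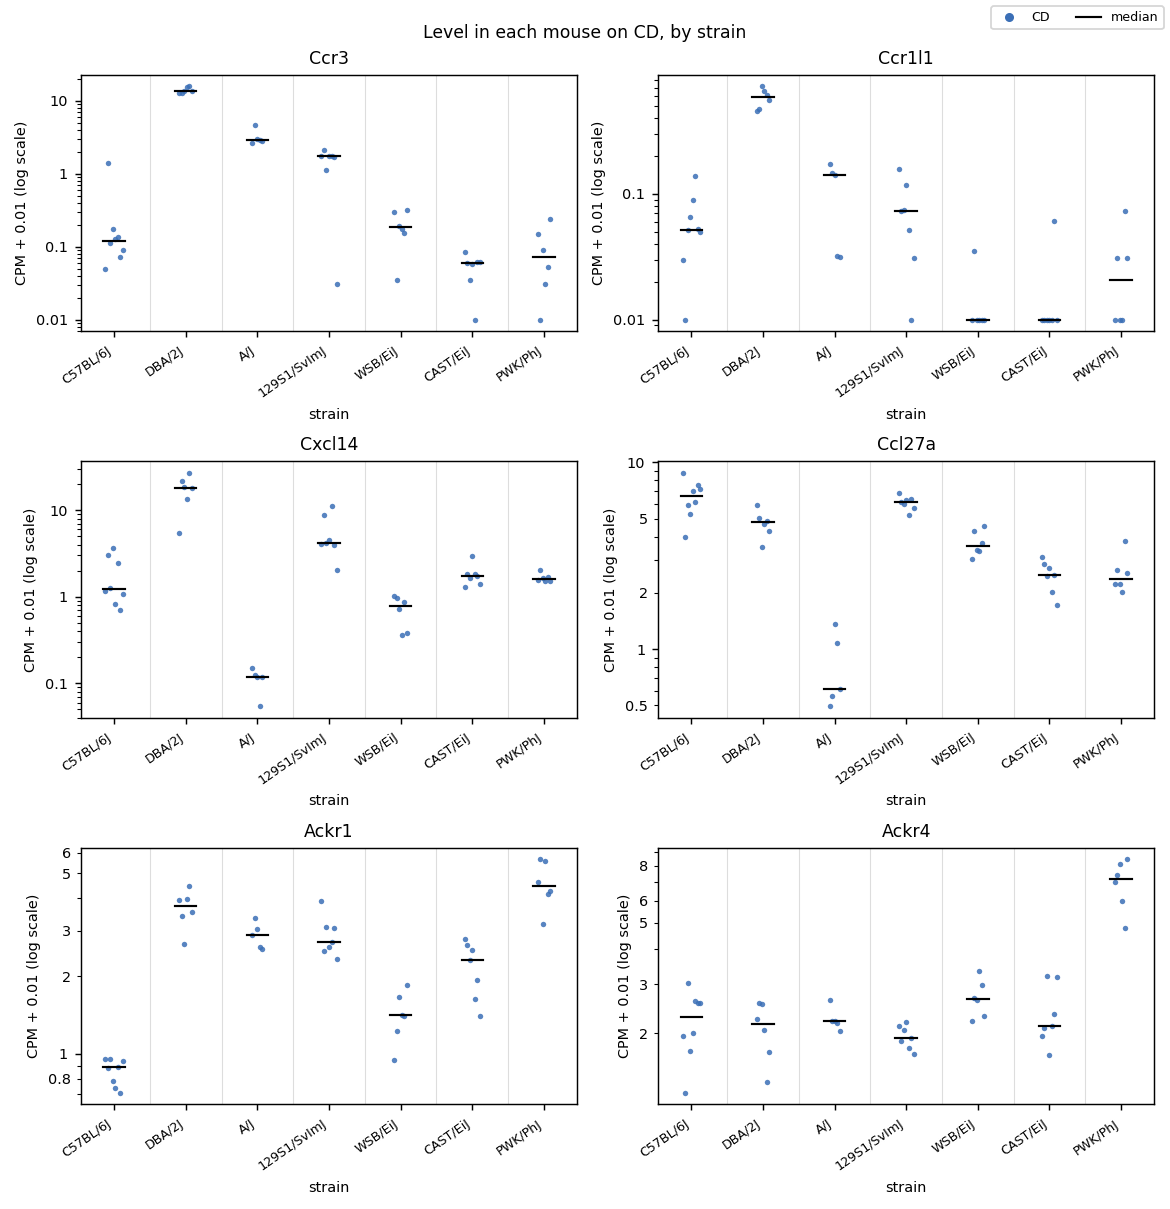
CD levels of Ccr3, Ccr1l1, Cxcl14, Ccl27a, Ackr1 and Ackr4 in each mouse, as CPM plus 0.01 on a log axis, by strain, with a bar at the median. Ccr3, Ccr1l1 and Cxcl14 have their highest medians in DBA/2J (13.5, 0.579 and 18.2 CPM), Ccl27a and Cxcl14 their lowest in A/J (0.604 and 0.109 CPM), and Ackr4 its highest in PWK/PhJ (7.19 CPM).

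Per kilobase of exon, averaged over the 14 groups, the most abundant of the 50 genes were Cxcl12 (42.7 CPM per kb), Ccl9 (34.4), Cxcl1 (10.9), Ccl6 (6.27) and Cxcl9 (5.50). CAST/EiJ had the highest CD level of Cxcl12, 553 CPM ± 46.5 (SD, n = 7), and C57BL/6J the lowest of Ccl9, 64.4 CPM ± 13.2 (SD, n = 8).

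The markers of cell types that carry or make chemokines were followed beside these results. Of 10 markers of monocytes and recruited macrophages, 9 were upregulated in C57BL/6J, 9 in 129S1/SvImJ and 9 in PWK/PhJ, against 14.3%, 14.5% and 15.1% of all genes. These were the 3 strains with the most upregulated chemokine genes. The other marker, Cd9, was downregulated in C57BL/6J. In WSB/EiJ 3 were upregulated, in A/J 1 and in CAST/EiJ 1, against 4.97%, 4.39% and 9.77% of all genes. In DBA/2J 0 passed in limma in either direction, and 0 had an unadjusted p under 0.05. Their summed level went from 52.8 to 84.4 CPM on CD (median 68.3) to 128 to 224 CPM on WD (median 202) in 129S1/SvImJ and from 16.9 to 38.2 CPM (median 27.0) to 101 to 206 CPM (median 145) in PWK/PhJ, neither with overlap. In C57BL/6J it went from 110 to 595 CPM (median 157) to 151 to 546 CPM (median 262), and in DBA/2J from 98.9 to 106 CPM (median 103) to 73 to 118 CPM (median 82.0), both with overlap.

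Kupffer cell markers were upregulated for 5 of 8 in 129S1/SvImJ, for 3 in both PWK/PhJ and C57BL/6J and for 1 in CAST/EiJ. The shares of all genes in these strains were 14.5%, 15.1%, 14.3% and 9.77%. T cell markers were upregulated for 7 of 8 in 129S1/SvImJ, and NK cell markers for 4 of 6 there. In WSB/EiJ, CAST/EiJ and PWK/PhJ 1 T cell marker each was upregulated, and the NK cell marker Gzma was downregulated in PWK/PhJ. Dendritic cell markers were upregulated for 5 of 6 in C57BL/6J, 4 in 129S1/SvImJ, 2 in both A/J and WSB/EiJ and 0 in PWK/PhJ, DBA/2J and CAST/EiJ. Of these, Zbtb46 was downregulated in DBA/2J. Neutrophil markers were upregulated for 4 of 8 in 129S1/SvImJ, 3 in DBA/2J, 2 in PWK/PhJ and 1 each in C57BL/6J and WSB/EiJ. The shares of all genes in DBA/2J and WSB/EiJ were 10.2% and 4.97%. Stellate cell markers were upregulated for 4 of 7 in PWK/PhJ, 2 each in C57BL/6J and 129S1/SvImJ and 1 in A/J. Sinusoidal endothelial markers were downregulated for 4 of 7 in DBA/2J and 3 in C57BL/6J, against 7.77% and 11.9% of all genes. The other strains had 1 each, and A/J 0. They were upregulated for 2 each in C57BL/6J and 129S1/SvImJ and 1 in PWK/PhJ. Of 6 B and plasma cell markers 0 were upregulated, and Mzb1 was downregulated in PWK/PhJ. Hepatocyte markers, the label check for liver, were detected in all groups and were downregulated for 5 of 6 in PWK/PhJ and 4 in C57BL/6J and A/J. The shares of all genes downregulated were 14.5%, 11.9% and 4.64%. In 129S1/SvImJ and WSB/EiJ 3 each were downregulated, in CAST/EiJ 2 and in DBA/2J 1, while Cyp2e1 was upregulated in C57BL/6J. All of the listed markers had counts in some mouse, and the part of these cell types in the chemokine results was not tested.

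**Figure D5:**
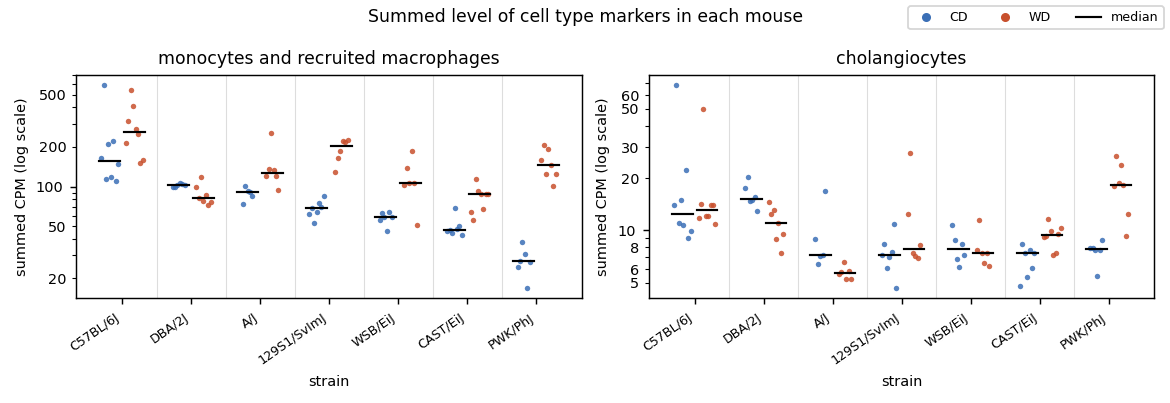
Summed level of 10 markers of monocytes and recruited macrophages and of 5 markers of cholangiocytes in each of the 93 mice, as CPM on a log axis, by strain, with CD in blue, WD in red and a bar at the group median. The monocyte sums do not overlap between diets in 129S1/SvImJ and PWK/PhJ, and 2 C57BL/6J mice, 1 on each diet, hold the highest cholangiocyte sums (68.8 and 49.7 CPM).

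Other genes of the pathway were counted in the same way. Of 40 genes of chemokine receptor signalling (G protein subunits, PI3K gamma, Rac and its activators, kinases and RGS proteins), 26 were upregulated in C57BL/6J, 23 in 129S1/SvImJ and 22 in PWK/PhJ, where the shares of all genes were 14.3%, 14.5% and 15.1%. In DBA/2J and CAST/EiJ 4 were, near the shares of all genes (10.2% and 9.77%), in WSB/EiJ 4, against 4.97%, and in A/J 2, against 4.39%. Those downregulated numbered 1 (Plcb3, named after its values were seen) in C57BL/6J and 129S1/SvImJ each, 3 in PWK/PhJ and CAST/EiJ each and 4 in DBA/2J. Gnai1, an inhibitory G protein subunit, rose in PWK/PhJ from a mean of 4.82 to 24.3 CPM (log2 fold change 2.30 ± 0.17, SE, adjusted p = 8.6e-20) and also rose in C57BL/6J (log2 fold change 1.79) and DBA/2J (1.74). It was looked up only where it was among the 2 largest changes of the list, so other strains may be missing. Of 7 genes that cut or release ligands, 3 were upregulated in C57BL/6J, 4 in 129S1/SvImJ and 5 in PWK/PhJ, 1 in both A/J and WSB/EiJ and 0 in DBA/2J and CAST/EiJ. Mmp12, a macrophage protease that trims chemokines, had a log2 fold change of 6.25 ± 0.95 (SE, adjusted p = 2.7e-07) in 129S1/SvImJ, where its mean went from 0.342 to 27.4 CPM. It also rose in C57BL/6J (2.6 on the log2 scale), A/J (3.2), WSB/EiJ (4.2) and PWK/PhJ (4.5), with adjusted p of 0.0159 or less in limma.

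Of 10 other chemoattractants and their receptors, 8 were upregulated in C57BL/6J, 7 in 129S1/SvImJ and 5 in PWK/PhJ, against 14.3%, 14.5% and 15.1% of all genes. In CAST/EiJ 2 were upregulated and in WSB/EiJ 1, against 9.77% and 4.97%. In DBA/2J and A/J 0 passed in limma, against 10.2% and 4.39%. Ltb4r1, named after its values were seen, was downregulated in PWK/PhJ. Csf3r, the receptor of granulocyte colony-stimulating factor, led in 129S1/SvImJ (log2 fold change 1.56) and C5ar1, the receptor of complement C5a, in PWK/PhJ (1.85). Of 18 cytokines and transcription factors that induce chemokine genes, 9 were upregulated in C57BL/6J, 9 in 129S1/SvImJ and 7 in PWK/PhJ. The shares of all genes were 14.3%, 14.5% and 15.1%. In A/J and WSB/EiJ 3 each were upregulated, against 4.39% and 4.97%, in DBA/2J 1, against 10.2%, and in CAST/EiJ 0, against 9.77%. Downregulated were 2 in 129S1/SvImJ and 1 each in DBA/2J, A/J, WSB/EiJ and PWK/PhJ. Tnf, an inducer of many ligands, rose in 129S1/SvImJ from a mean of 0.0971 to 1.16 CPM (log2 fold change 3.74 ± 0.55, SE, adjusted p = 1.3e-07). It also rose in C57BL/6J (1.64, adjusted p = 0.000142) and PWK/PhJ (1.78, adjusted p = 0.00876). Tnfaip3, a brake on NF-kappaB that NF-kappaB itself induces, rose in C57BL/6J (1.29 on the log2 scale, adjusted p = 1.3e-09), DBA/2J (0.65, adjusted p = 0.026) and A/J (0.78, adjusted p = 0.0135) and in WSB/EiJ (1.47, adjusted p = 2.1e-05). Tnf and Tnfaip3 were looked up only in strains where they were among the 2 largest changes of the list. The strains named for them may therefore be incomplete. Stat2, which interferon activates and which was likewise named afterwards, fell in A/J, 129S1/SvImJ, WSB/EiJ and PWK/PhJ. Of 6 chemokine-related genes outside the symbol rule, 5 were upregulated in 129S1/SvImJ, against 14.5% of all genes, including Pf4 and the atypical receptor-like Ccrl2 (log2 fold changes of 1.04 and 0.94). In C57BL/6J and PWK/PhJ 2 each were upregulated, in A/J and CAST/EiJ 1 each and in DBA/2J and WSB/EiJ 0.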

How the data were processed

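Libraries were made from whole liver RNA of 93 mice (SMARTER mRNA-Seq kit, BGISEQ-500), and reads of every strain were mapped to GRCm38 (mm10) with STAR 2.7.1a, as the study's methods and the submitters' processing notes state. The authors deposited raw gene counts, not normalized. The annotation release and the strand setting of the counting are not given in the sources used here, so overlapping genes on opposite strands cannot be told apart. Positions and exon lengths were taken from GENCODE vM21, and 53360 of 53465 genes paired with a symbol.

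Genes passing filterByExpr (minimum count 10) were scaled by TMM (factors 0.81 to 1.27) and fitted with voom and limma (edgeR 4.0.16, limma 3.58.1, R 4.3.3) as 14 strain and diet means over all mice, which share 1 estimate of the spread. WD was compared with CD in each strain, with Benjamini-Hochberg adjustment over 19110 genes and a threshold of 0.05. Contrasts and F tests compared the strains. Levels are TMM-scaled CPM, and log2 CPM used a prior count of 2. Depth was 40020424 to 49894856 counts per mouse, so a gene of under 10 counts is known only roughly. Groups came from the labels, and mice were housed in groups, so some may share a cage, which was not modelled. A fold against a group with no counts was bounded by 3 counts over that group, which covers counting error only.

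The 25 genes described in detail were those that were DEGs in the same direction in 3 or more strains, the 3 DEGs of largest change in each strain, the 5 with the smallest F test p for the diet effect and the 5 with the smallest for the CD level. Of the other lists, the 2 DEGs of largest change in a strain could be named. One gene that this rule picked is counted but not reported here. The members and all gene lists were chosen with earlier results of these data known. Other genes were named after their values were seen, as said beside them. Alternatives were edgeR's quasi-likelihood test, DESeq2 1.42.0, upper-quartile scaling, 2 other filters, cohort or RIN as covariates, sample weights, a fit per strain and leaving out each mouse. The scripts were tested on simulated counts. Tables and plots used Python 3.11.15 with pandas 2.3.3, numpy 2.4.6 and matplotlib 3.10.9.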

Additional observations from a re-analysis of the deposited data

Results flagged for a closer look

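Among 344 groups of values, one for each strain and diet of a gene described in detail, 46 held a highest or lowest mouse that lay farther from the others than a 95% limit for its group size allows. For normally distributed values, chance alone gives about 1 such value in 20 groups. CPM values are skewed near 0, so that rate does not hold here and an excess is not shown. Some flags rest on very few counts: the Ccr1l1 value of WSB/EiJ CD mouse 2 was 1 count, the only one of its group. The limit tests 1 mouse at each end, so mice that lie apart together can be missed. Values are CPM. C57BL/6J CD mouse 2 was high for Ackr3 (5.58), Ccl20 (0.151), Ccr1 (2.07), Ccr2 (10.03), Ccr3 (1.39), Cx3cl1 (8.3), Cx3cr1 (16.2) and Cxcl5 (2.55). A/J WD mouse 3 was high for Ccr1 (1.04), Ccr2 (6.31), Cxcl10 (11.8) and Cxcl16 (17.4). PWK/PhJ CD mouse 5 was high for Ccl27a (3.76) and Ccr1l1 (0.0634) and low for Cxcl16 (5.51). CAST/EiJ WD mouse 3 was high for Ccl6 (9.72), Ccr1 (1.03) and Ccr3 (0.479). CAST/EiJ WD mouse 4 was high for Ccr10 (0.227), Ccr1l1 (0.0252) and Cxcl2 (0.378). C57BL/6J WD mouse 3 was high for Ccl22 (2.59) and Cx3cl1 (10.6). CAST/EiJ CD mouse 1 was high for Ccl22 (0.122) and Cxcl2 (0.196). 129S1/SvImJ WD mouse 2 was high for Cx3cl1 (2.03) and Cxcl5 (8.38). The part of these mice’s cell makeup was not tested.

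Single values also stood apart. PWK/PhJ WD mouse 2 was high for Ackr3 (3.34). A/J WD mouse 2 was high for Ccl20 (0.123). DBA/2J WD mouse 1 was high for Ccl22 (0.406). A/J CD mouse 1 was high for Ccl3 (0.439). 129S1/SvImJ CD mouse 6 was high for Ccl4 (0.358). WSB/EiJ CD mouse 4 was low for Ccl7 (0). C57BL/6J CD mouse 3 was high for Ccr10 (0.309). PWK/PhJ WD mouse 4 was high for Ccr1l1 (0.0571). CAST/EiJ CD mouse 6 was high for Ccr1l1 (0.0513). 129S1/SvImJ WD mouse 6 was high for Ccr1l1 (0.408). WSB/EiJ CD mouse 2 was high for Ccr1l1 (0.0254). PWK/PhJ CD mouse 3 was high for Ccr2 (3.58). WSB/EiJ WD mouse 4 was high for Ccr2 (5.77). A/J CD mouse 2 was high for Ccr3 (4.67). CAST/EiJ CD mouse 4 was high for Cx3cr1 (0.486). CAST/EiJ WD mouse 6 was high for Cxcl12 (593). 129S1/SvImJ WD mouse 1 was low for Cxcl2 (0.499). WSB/EiJ CD mouse 6 was high for Cxcl5 (0.0235). PWK/PhJ CD mouse 4 was high for Cxcr4 (2.15).

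The diet effect in 1 strain differed from the mean of the other 6, by the limma contrast at an adjusted p under 0.05, in 27 cases among the genes described in detail, given here as log2 differences. These 25 genes, tested in each of 7 strains, were picked partly by diet effects in these data. Their number of cases is therefore not an enrichment over all genes, where the share ran from 0.466% in A/J to 16.3% in PWK/PhJ. Ccl20 and Ccl7 reached 10 counts in fewer than 5 CD mice, so their contrasts are not independent of the rule. In PWK/PhJ the difference was 2.35 for Ccl20, 1.96 for Cx3cl1, 1.64 for Cx3cr1, 1.21 for Ccl6 and 0.455 for Cxcl16. In DBA/2J the difference was −1.24 for Ccl6, −0.645 for Cxcl16, −1.69 for Ccl2, −0.534 for Ackr1, −2.6 for Ccl7, −1.17 for Ccr2, −1.91 for Ccr1, −1.61 for Ccl3 and −1.96 for Ccl22. In 129S1/SvImJ the difference was 1.55 for Ccr2, 2.3 for Cxcl2, 2.02 for Ccl2, 0.586 for Ackr1, 2.75 for Ccl22, 1.93 for Ccl4, 1.17 for Cxcl10, 1.92 for Cx3cr1, 0.538 for Cxcl16 and 1.64 for Ccr1l1. In CAST/EiJ the difference was −1.22 for Ackr3. In A/J the difference was −2.27 for Ccr3. In C57BL/6J the difference was −1.16 for Ccl22.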

How the results depend on the processing

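Counts of chemokine genes are given as upregulated or downregulated on WD. With at least 10 counts required in every mouse, 17 of the 50 genes were tested, and the upregulated count was 8 for both C57BL/6J and 129S1/SvImJ, 6 for PWK/PhJ, 1 for both WSB/EiJ and A/J and 0 for both DBA/2J and CAST/EiJ, with 0 downregulated in A/J. Fits per strain gave 13 upregulated and 1 downregulated of 40 tested in C57BL/6J, 5 upregulated of 37 in A/J and 1 of 25 in CAST/EiJ. edgeR gave 1 up and 1 down in DBA/2J and 6 up in A/J. DESeq2 gave 1 down in DBA/2J, 5 up and 0 down in A/J and 4 up in CAST/EiJ. Without a filter there were 1 down in DBA/2J, 1 up in A/J and 0 down in WSB/EiJ. Cohort as a covariate gave 1 up in A/J and 1 in CAST/EiJ. Sample weights gave 5 up in A/J, 2 down in WSB/EiJ, 0 up in CAST/EiJ and 2 down in PWK/PhJ. Upper-quartile scaling gave 0 down in WSB/EiJ. The cause of these shifts was not tested, except that the stricter filter and the fits per strain test fewer genes, though the C57BL/6J fit tested 23 of the 24 genes upregulated there and called 13 of them. Leaving out each mouse gave 1 to 3 up and 1 to 2 down in DBA/2J, 0 to 6 up in A/J, 0 to 2 down in WSB/EiJ, 0 to 3 up in CAST/EiJ and 0 to 1 down in PWK/PhJ. The A/J count fell to 0 without CD mouse 1, 2, 3 or 5 or WD mouse 2 and was 6 without WD mouse 6. The CAST/EiJ count fell to 0 without CD mouse 5, and the PWK/PhJ fall was lost without WD mouse 4 or 5. Within CAST/EiJ cohort 1 (1 CD and 3 WD mice) the log2 difference was 0.10 for Ackr3 and −1.07 for Cxcl2, both opposite to the whole strain. Of 74 DEG calls on the genes described in detail, 51 held under every alternative and 0 reversed outside single cohorts. Depth limits the genes near 10 counts. No paired analysis was possible because the replicate numbers were given in accession order and only name mice.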
